A study of Mus musculus with 2 samples.

Results

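Small nucleolar RNA and microRNA genes were compared between haematopoietic stem and progenitor cells of Nrf2 knockout mice and of wild-type mice; NRF2 is a transcription factor of the antioxidant response. Members were the genes whose probe sets carried exactly 1 gene symbol in the platform annotation, with a symbol starting Snord, Snora, Scarna or Mir; they numbered 356 of 19938 measured genes. They fell into 31 box C/D snoRNA genes, 20 box H/ACA snoRNA genes, 3 scaRNA genes and 302 genes of the microRNA class. The current RefSeq annotation gave the biotype snoRNA to 30 of the 31 box C/D genes, Snord73b being listed as an snRNA, and to all 20 box H/ACA genes, guide RNA to the 3 scaRNA genes and miRNA to 296 of the 302 genes of the microRNA class. The other 6 of that class, Mir17hg, Mir100hg, Mir99ahg, Mir670hg, Mirt1 and Mirt2, are long non-coding RNAs that the symbol rule also takes in.

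The knockout pool was made of marrow from 5 Nrf2-/- mice, labelled Nrf2 KO, and the wild-type pool of marrow from 5 Nrf2+/+ mice. All were young healthy mice of 8 to 10 weeks on the C57BL/6J background, and none was treated. KSL cells, defined by c-Kit, Sca-1 and the absence of mature lineage markers, were sorted from each pool, and 1 RNA sample per genotype was hybridised to 1 Affymetrix Mouse Gene ST 1.0 array. Pooling leaves no measure of the spread between mice, so no test was run, no difference has a replicate check, and every value below describes these 2 arrays. Values are log2 intensities, and each difference is the knockout value minus the wild-type value on that scale.

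Box C/D snoRNAs guide the 2′-O-methylation of ribosomal RNA, and box H/ACA snoRNAs guide the conversion of uridine to pseudouridine. Most mammalian snoRNAs are cut out of introns of genes for ribosomal proteins, translation factors or non-coding host RNAs, while scaRNAs guide the same modifications on spliceosomal RNAs in Cajal bodies. MicroRNAs are cropped as hairpins from long primary transcripts by DROSHA and DGCR8, diced by DICER1 and loaded into Argonaute proteins, where bases 2 to 8, the seed, pair with target transcripts. On an array of gene probe sets, the signal of a small RNA gene can come from the mature RNA, its precursor or the longer transcript it lies in. Which of these was measured was not tested.

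The microRNA genes whose values are described most closely below encode the following mature RNAs, written 5′ to 3′ from RefSeq (GRCm38.p6) with the seed in capitals. The first set holds both arms of Mir505, the microRNA gene with the largest difference, and the guide arms of the Mir107 and Mir103 genes, which share a seed and differ at the 3′ end.
miR-505-3p: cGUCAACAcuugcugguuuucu
miR-505-5p: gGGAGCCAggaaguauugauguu
miR-107-3p: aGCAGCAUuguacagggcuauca
miR-103-3p: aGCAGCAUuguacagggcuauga
The next set shows the products of the Mir17 cluster and of its relatives beside Mcm7, with 4 different seeds, of which AAAGUGC is shared by miR-17, miR-20a, miR-93 and miR-106b.
miR-17-5p: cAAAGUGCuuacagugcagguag
miR-20a-5p: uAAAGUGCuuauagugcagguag
miR-93-5p: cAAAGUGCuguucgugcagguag
miR-106b-5p: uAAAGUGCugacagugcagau
miR-18a-5p: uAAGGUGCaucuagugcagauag
miR-19a-3p: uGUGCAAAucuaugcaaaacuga
miR-19b-3p: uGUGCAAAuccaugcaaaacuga
miR-25-3p: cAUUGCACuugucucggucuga
The last set shows a Hox-cluster microRNA, a lymphoid one made from 2 genes and a haematopoietic one, each discussed below.
miR-196b-5p: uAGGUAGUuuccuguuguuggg
miR-181a-5p: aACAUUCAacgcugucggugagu
miR-142a-3p: uGUAGUGUuuccuacuuuaugga
The mature miR-505-3p lies at chrX:60394416-60394437 on the minus strand. The hairpin of Mir107 lies at chr19:34820687-34820773 on the minus strand, inside the span of Pank1 on the same strand. The hairpins of the Mir17 cluster run along the plus strand of chromosome 14, with Mir17 at chr14:115043671-115043754 and Mir19b-1 at chr14:115044305-115044391. Mir25, Mir93 and Mir106b lie on the minus strand inside Mcm7, with Mir25 at chr5:138165321-138165404. Mir196b lies at chr6:52230081-52230165 on the minus strand and Mir142 at chr11:87756864-87756927 on the plus strand.

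Small RNA genes held many of the largest differences towards higher values in knockout cells. A gene was taken as past the level filter when the mean of its 2 log2 values reached 6.57, the median over all genes, and 117 of the 356 members did: 25 box C/D, 17 box H/ACA, 3 scaRNA and 72 of the microRNA class. Of these 117, 15 were at least 2-fold higher in knockout cells, which is 12.8%, against 0.411% of all 9970 genes past the filter. Only 1 of the 117 was at least 2-fold lower, which is 0.855%, against 0.762% of all genes past the filter. At 1.5-fold, 24 of the 117 were higher, against 2.34% of all genes past the filter, and 3 were lower, against 4.3%. Of any size, 76 of the 117 were higher and 39 lower, against 46.5% higher and 52.9% lower of all genes past the filter. The filter uses both arrays, so a gene that is weak in 1 pool can pass through the other, and 7 of the 15 higher members were below the filter level in wild-type cells. With both arrays required at the filter level, 8 of 108 members were at least 2-fold higher, against 0.241% of 9534 genes, and 1 was at least 2-fold lower, against 0.535%.

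Among all genes past the filter, 4 of the 5 highest differences and 6 of the 10 highest belonged to small RNA genes. Snord61 ranked 1, Mir505 ranked 2, Snord35a ranked 3 and Snora69 ranked 5, but Snord61, Snord35a and Snora69 passed the filter only through the knockout array. Among the 9534 genes at the filter level on both arrays, 2 of the 5 highest and 5 of the 10 highest differences were members, with Mir505 ranked 1 and Snord37 ranked 5. At the other end of the genes past the filter, 1 of the 10 lowest differences was a member, Snora30. Members scattered more widely than other genes. The SD of the differences past the filter was 0.92 for box C/D, 0.85 for box H/ACA and 0.51 for the microRNA class, against 0.32 for the 9853 other genes. These SDs include members that passed the filter only through the knockout array. With both arrays at the filter level they were 0.66, 0.73 and 0.46, against 0.30 for 9426 other genes.

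**Figure D1:**
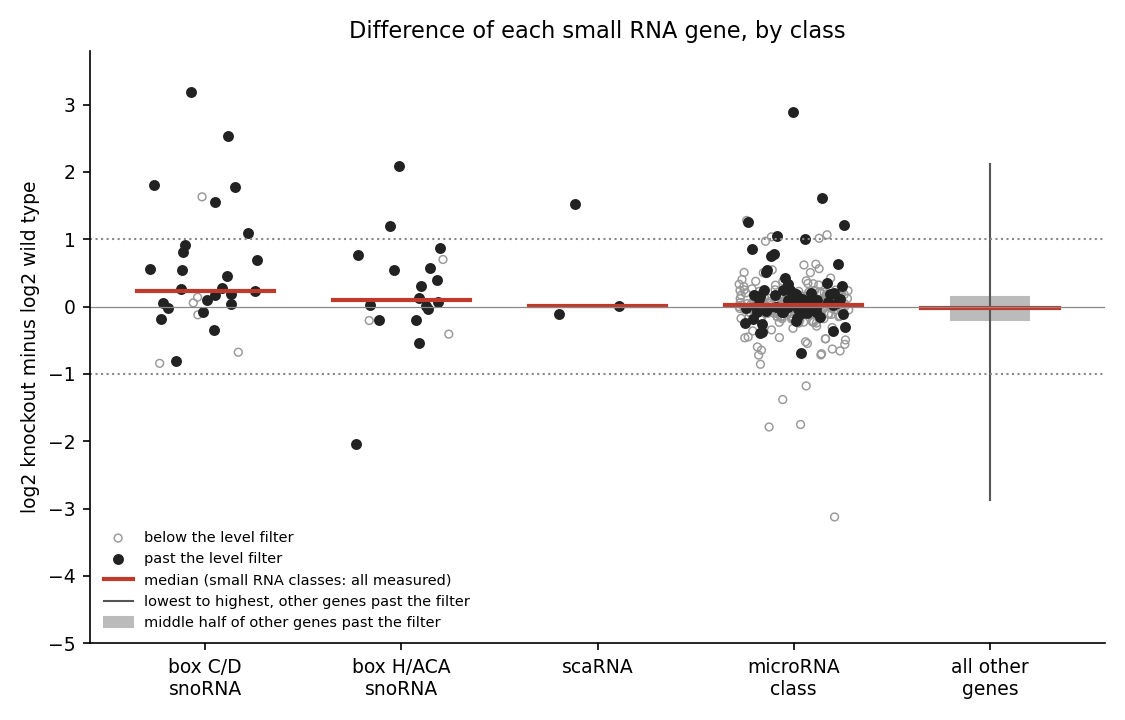
Differences (knockout minus wild type on the log2 scale, vertical axis) of the 356 small RNA genes by class, with filled points past the level filter, open points below it and a bar at the median of all measured members. For the 9853 other genes past the filter, the box spans the quartiles, the bar is the median and the line runs between the lowest and the highest difference; dotted lines mark 2-fold. The highest box C/D difference, 3.19, is that of Snord61, which passed the filter only through the knockout array. With both arrays at the filter level, the highest difference was 1.81 for box C/D, against 2.12 for the other genes.

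Box C/D snoRNA genes stood higher in knockout cells more often than lower. Over all 31 measured genes, 23 were higher and 8 lower, with a median difference of 0.23, against 0.01 over all 19938 genes. Of the 25 past the filter, 6 exceeded 2-fold towards knockout and 0 towards wild type. The shares of all genes past the filter were 0.411% and 0.762%. With both arrays at the filter level, 4 of 23 exceeded 2-fold towards knockout and 0 towards wild type, against 0.241% and 0.535% of all such genes.

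Snord61 had the largest difference of any gene past the filter. It stood at 8.51 in knockout cells, against 5.32 in wild-type cells, a difference of 3.19, or 9.15-fold. The wild-type value was below the filter level, so the size is less sure than that of a gene well measured in both pools. Snord37 had 9.02 in knockout cells and 7.21 in wild-type cells, 3.50-fold higher. Snord96a had 8.87 in knockout cells and 7.09 in wild-type cells, 3.43-fold higher. Both were above the filter level in both pools.

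Snord33 and Snord35a lie in Rpl13a, whose intronic snoRNAs are known from work on mouse and hamster cells as mediators of the response to lipid-induced oxidative stress. Both were at least 2-fold higher. Snord35a had 8.13 in knockout cells, against 5.60 in wild-type cells, a difference of 2.53. Snord33 had 8.21 in knockout cells, against 6.66 in wild-type cells, a difference of 1.56. The probe sets of Snord32a and Snord34, the other Rpl13a snoRNAs on the array, also carry the symbol Rpl13a and did not meet the rule. Rpl13a itself was not analysed here.

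The sixth of these genes was Snord87, with 8.44 in knockout cells and 7.34 in wild-type cells, 2.13-fold higher. Below 2-fold, Snord82 differed by 0.92, Snord49a by 0.81, Snord47 by 0.69, Snord57 by 0.56 and Snord15b by 0.54. The lowest differences past the filter were those of Snord16a at −0.81 and Snord42a at −0.35. Snord104, Snord14e and Snord22, which gave strong signals, were close to level. Snord104 had 12.55 in knockout cells and 12.29 in wild-type cells, and Snord14e had 11.74 in knockout cells and 11.55 in wild-type cells. Snord22 differed by 0.05. Below the filter, Snord58b had 6.92 in knockout cells and 5.29 in wild-type cells, with differences of 1.66 and 1.60 in its 2 probe sets, while Snord15a differed by −0.84.

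The 5 measured snoRNA genes listed for the processing of pre-ribosomal RNA showed no common direction, with 2 higher and 3 lower. Snord118, the U8 snoRNA, had 5.08 in knockout cells and 5.76 in wild-type cells, both below the filter level. Snord14e and Snord22 differed by 0.19 and 0.05, and Snora73a and Snora73b, the U17 snoRNA genes, by −0.20 and −0.03. The sign of Snora73b turned when the arrays were scaled in another way.

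Box H/ACA snoRNA genes showed a smaller shift, with 13 of 20 measured genes higher and 7 lower and a median of 0.10. Past the filter, 2 of 17 exceeded 2-fold towards knockout and 1 towards wild type, against 0.411% and 0.762% of all genes past the filter. With both arrays at the filter level, 1 of 16 exceeded 2-fold in each direction, against 0.241% and 0.535% of all such genes. Snora69 had 7.86 in knockout cells, against 5.77 in wild-type cells, 4.26-fold higher, with the wild-type value below the filter level. Snora23 was well measured in both pools, at 10.02 in knockout cells and 8.82 in wild-type cells, a difference of 1.20. Snora74a differed by 0.87, Snora41 by 0.76, Snora33 by 0.57 and Snora3 by 0.55.

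Snora30 was the exception in direction. Its level was 7.55 in knockout cells, against 9.59 in wild-type cells, a difference of −2.04, or 4.11-fold lower, the 8th lowest of all genes past the filter. The gene has 2 probe sets whose deposited values were identical in each pool, so they give 1 measurement. Snora7a differed by −0.54, and Snora31 had 11.83 in knockout cells and 11.52 in wild-type cells.

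The 3 scaRNA genes were all past the filter. Scarna8 had 8.27 in knockout cells and 6.74 in wild-type cells, 2.89-fold higher. Scarna17 had 11.48 in knockout cells and 11.47 in wild-type cells, and Scarna13 had 6.62 in knockout cells and 6.73 in wild-type cells. The class thus held 1 gene far apart and 2 that were nearly level.

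**Figure D2:**
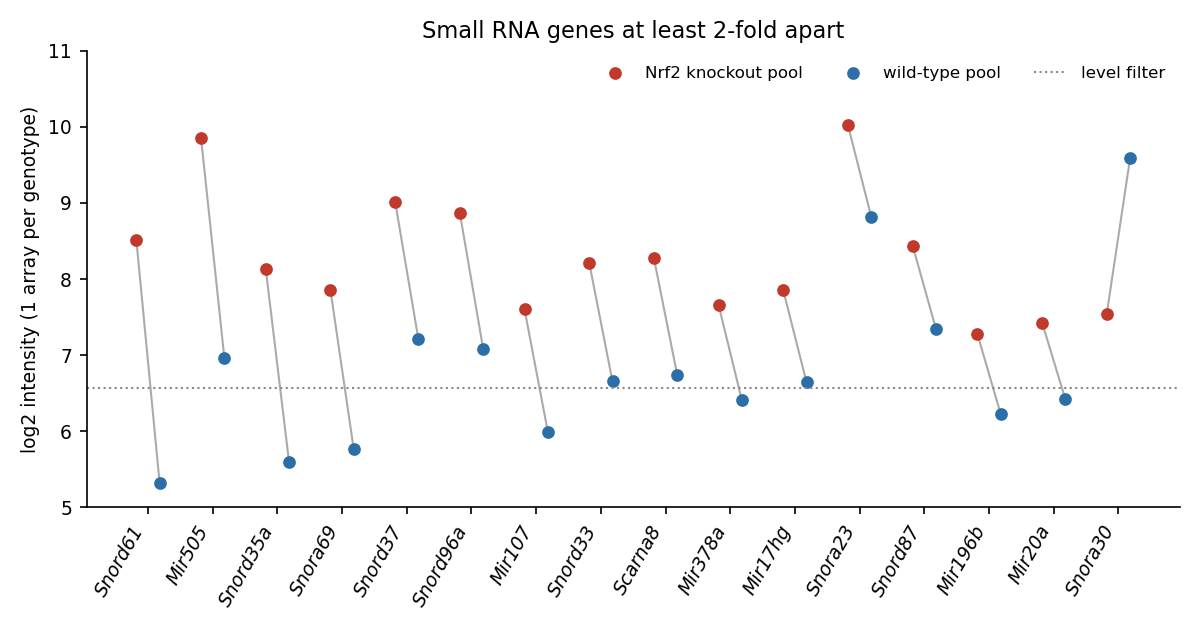
Log2 intensity (vertical axis) of the 16 members past the level filter that were at least 2-fold apart, ordered by difference, with the Nrf2 knockout pool on the left and the wild-type pool on the right of each pair. The dotted line is the level filter at 6.57; 7 of the 15 genes higher in knockout cells have a wild-type value below it, and Snora30 alone is lower in knockout cells.

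The genes that hold the snoRNAs, where measured, were within 1.5-fold in the same arrays. All 53 snoRNA and scaRNA genes other than Snord118 lie inside the annotated span of another gene, by span alone because the tables give no strand for snoRNA genes. For 29 of them the surrounding gene was measured and past the filter, 25 different genes in all. Every one of these surrounding genes was within 1.5-fold, between −0.20 and 0.50. So were 9308 of all 9970 genes past the filter, so this count is near that of genes at large. Over the 29 pairs their SD was 0.16, against an SD of 0.91 for the small RNA genes. The small RNA genes were not required to pass the filter, and the surrounding gene had the higher mean level in all 29 pairs. In the 25 pairs with the small RNA also past the filter, the SDs were 0.16 and 0.94. Snord61, the highest of them, passed only through the knockout array. Across the 29 pairs, some of which share a surrounding gene, the differences of the small RNA and of the gene around it correlated with r = 0.14, which is given as a description. Rpl13a, Rack1 and Rpl39, around Snord33, Snord35a, Snord96a and Snora69, were not among the measured genes. Snord87 lies in Snhg6, also not measured, and in Mcmdc2, below the filter. The pairs therefore leave out these members, which were at least 2-fold higher.

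Snord61 lies in Rbmx, which encodes an RNA-binding protein and had 8.16 in knockout cells and 8.09 in wild-type cells, a difference of 0.08. Snord37 lies in Eef2, the elongation factor gene, which had 12.12 in knockout cells and 12.06 in wild-type cells. Scarna8 lies in Haus6, a spindle gene that differed by 0.11, and Snora23 in Ipo7, an import receptor gene that differed by 0.34. In these 4 cases the small RNA was at least 2-fold higher and the surrounding gene within 1.5-fold. For Snora30 the directions were opposite, since Srcap, a chromatin remodeller gene, had 10.13 in knockout cells and 9.87 in wild-type cells. Some pairs were closer together. Snord47 and the non-coding host Gas5 differed by 0.69 and 0.50, and Snord57 and Nop56, which encodes a core protein of box C/D particles, by 0.56 and 0.35.

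Small RNAs of the same gene did not always have similar differences. Among the 10 genes that hold 2 measured members, the gap between the 2 was largest in Rack1, where Snord96a differed by 1.78 and Snord95 by 0.18. In Rps3, Snord15b differed by 0.54 and Snord15a by −0.84. In Ncl, which encodes nucleolin, Snord82 differed by 0.92 and Snora75 by −0.20.

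**Figure D3:**
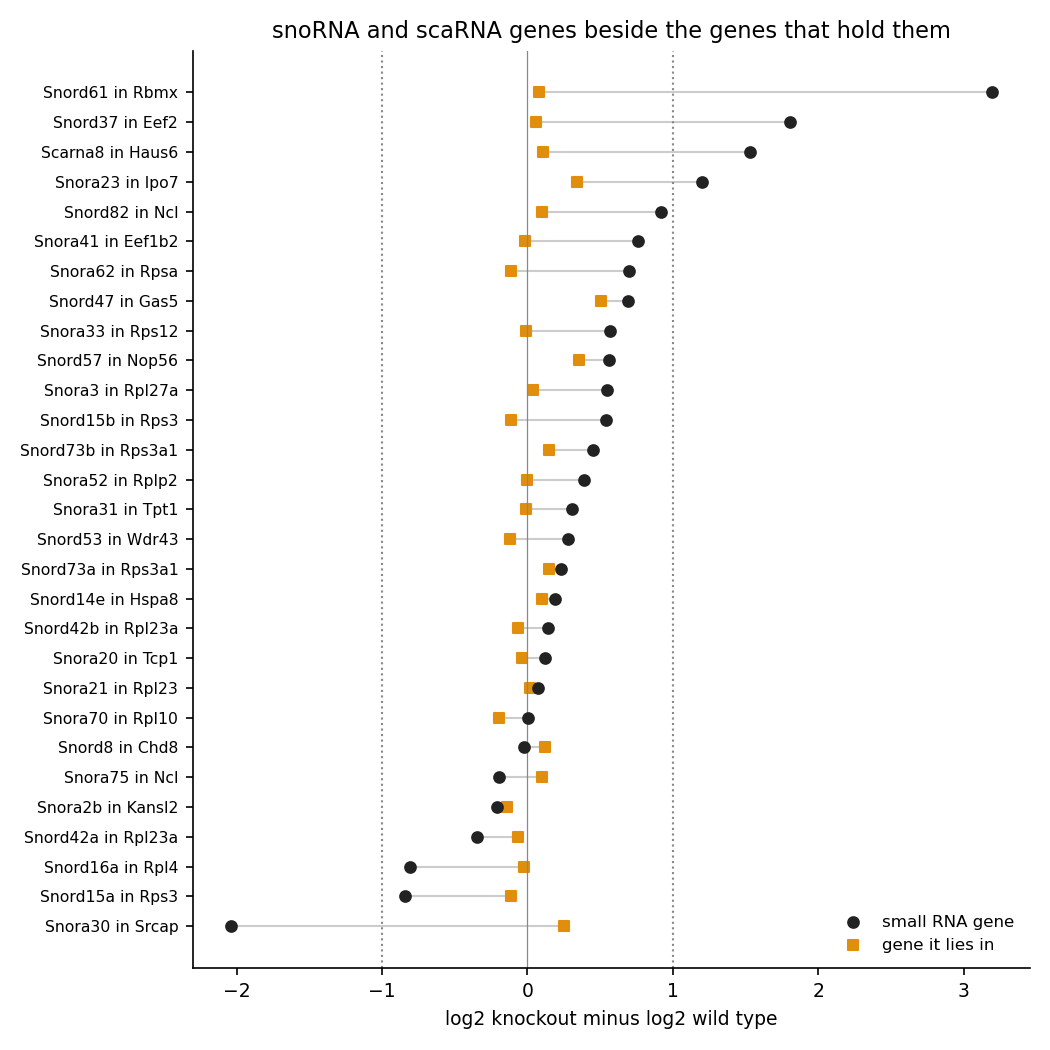
Differences (knockout minus wild type on the log2 scale, horizontal axis) of 29 snoRNA and scaRNA genes (circles) and of the gene each lies in (squares), joined by a line and ordered by the small RNA. The squares, all of genes past the level filter, stay between −0.20 and 0.50. The circles, which include genes below the filter, run between −2.04 and 3.19. Dotted lines mark 2-fold.

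Genes for the proteins of snoRNA particles were near level. Of 19 measured, all past the filter, 13 were higher and 6 lower, 0 by 2-fold in either direction. Their median was 0.10, against −0.02 over all genes past the filter. Of all genes past the filter, 46.5% were higher, and only 0.411% were higher and 0.762% lower by 2-fold. The methyltransferase gene Fbl had 10.01 in knockout cells and 9.99 in wild-type cells, and the pseudouridine synthase gene Dkc1 had 9.75 in knockout cells and 9.60 in wild-type cells. Nop56 and Snu13, both of the box C/D core, differed by 0.35 and 0.31, while Nhp2 of the box H/ACA core differed by −0.33. The largest differences were those of the Cajal body gene Coil at 0.44 and the assembly factors Znhit3 and Shq1, both at −0.54. A list of snoRNA host genes had 13 of 19 members past the filter higher, against 46.5% of all such genes, and a median of 0.10. The non-coding hosts past the filter, Snhg15, Snhg17, Gas5 and Snhg5, differed by 0.58, 0.56, 0.50 and 0.07.

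Most genes of the microRNA class gave weak signals, with 230 of 302 below the filter. Over all 302, 157 were higher, 129 were lower and 16 had the same deposited value in both pools, with a median of 0.03. Past the filter, 42 of 72 were higher and 28 lower, and 6 exceeded 2-fold towards knockout, against 0.411% of all genes past the filter, and 0 towards wild type. Of these 6, Mir107, Mir378a, Mir196b and Mir20a passed the filter only through the knockout array; with both arrays at the filter level 2 of 66 exceeded 2-fold towards knockout, Mir505 and Mir17hg, against 0.241% of all such genes. With no filter, 10 of 302 exceeded 2-fold towards knockout and 5 towards wild type, against 0.311% and 0.602% of all measured genes. The median past the filter was 0.07. Mir17hg is a host transcript; without the 6 long non-coding transcripts, 5 of 71 were at least 2-fold higher and the median was 0.06.

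Mir505 had the largest difference of the class. It had 9.85 in knockout cells, against 6.97 in wild-type cells, 7.40-fold higher, and both values were above the filter level. Mir107 had 7.60 in knockout cells, against 6.00 in wild-type cells, a difference of 1.61, with the wild-type value below the filter level. Pank1, the pantothenate kinase gene around it on the same strand, had 9.23 in knockout cells and 8.96 in wild-type cells. The genes that share the seed of Mir107, printed above, did not share its direction. Mir103-2, inside the related Pank2, had 5.68 in knockout cells and 6.54 in wild-type cells, and Mir103-1 had 4.01 in knockout cells and 4.24 in wild-type cells, all below the filter level.

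Mir378a, inside Ppargc1b, a coactivator gene of energy metabolism, had 7.66 in knockout cells and 6.41 in wild-type cells, a difference of 1.25. Ppargc1b differed by 0.28. Mir196b, which lies among the Hoxa genes and is high in haematopoietic stem cells, had 7.28 in knockout cells and 6.23 in wild-type cells, a difference of 1.05. For both, the wild-type value was below the filter level.

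The Mir17 cluster, which is known to promote cell growth and survival in blood cells, was higher in knockout cells at nearly all of its measured genes. The host transcript Mir17hg had 7.85 in knockout cells, against 6.64 in wild-type cells, 2.31-fold higher. Mir20a had 7.43 in knockout cells, against 6.42 in wild-type cells, a difference of 1.01. Mir17 had 8.36 in knockout cells and 7.85 in wild-type cells, and Mir18 had 8.52 in knockout cells and 7.97 in wild-type cells. These 4 genes were past the filter and all were higher, Mir20a with a wild-type value below the filter level. Mir19b-1, just under the filter, had 7.09 in knockout cells and 5.81 in wild-type cells, a difference of 1.28. Mir19a, which lies between Mir18 and Mir20a, had weak signals of 3.97 in knockout cells and 4.02 in wild-type cells.

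The relatives of this cluster were less uniform in size. Beside Mcm7, a replication helicase gene that differed by 0.05, Mir25 had 8.26 in knockout cells and 7.40 in wild-type cells, a difference of 0.86. Its neighbours Mir93 and Mir106b, below the filter, differed by 0.08 and 0.04. The X-linked cluster of Mir363 to Mir106a was below the filter at all 5 measured genes, with differences between −0.06 and 0.33. Over the Mir17 cluster and its relatives together, 12 of 14 measured genes were higher, against 50.7% of all measured genes. Of the 14, 5 passed the filter, all higher, against 46.5% of all genes past it.

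**Figure D4:**
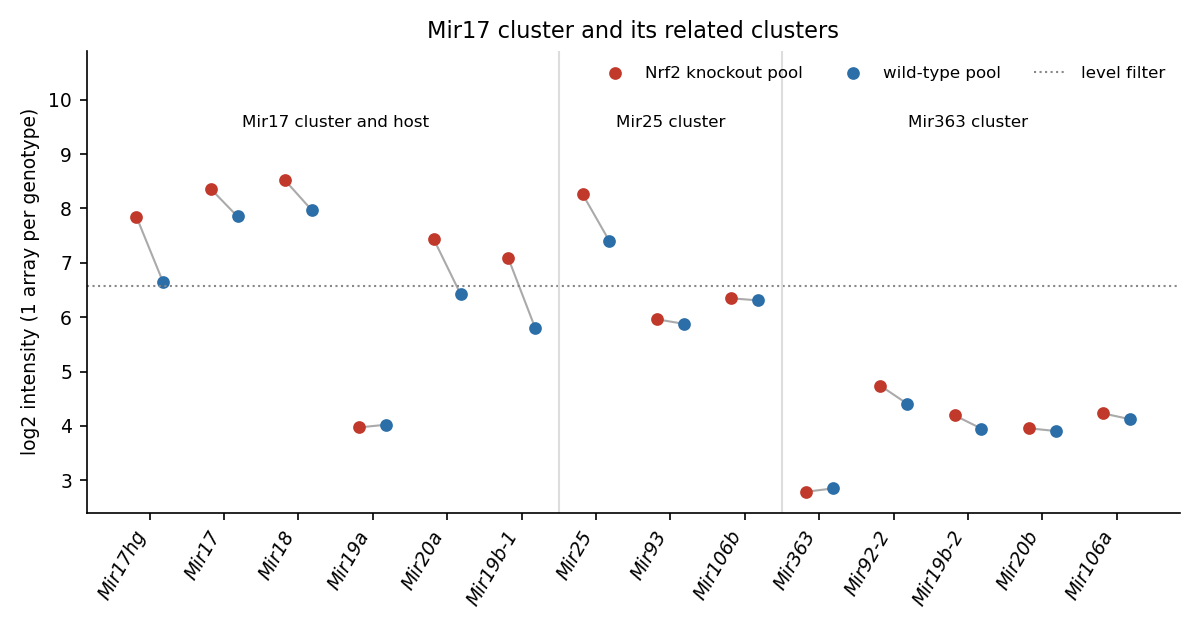
Log2 intensity (vertical axis) of Mir17hg, the Mir17 cluster and the related Mir25 and Mir363 clusters, with the Nrf2 knockout pool on the left and the wild-type pool on the right of each pair. The knockout point is higher at Mir17hg, Mir17, Mir18, Mir20a, Mir19b-1 and Mir25, and the Mir363 cluster lies below the level filter (dotted line) in both pools.

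MicroRNA genes grouped by shared seed gave few groups of 1 direction. The seeds of both arms were counted, for genes with a mature sequence in the set used. Of 20 seeds carried by at least 3 such genes, 3 had every gene higher and 1 had every gene lower. A gene can enter by both arms, so the 20 are not separate groups. Of the 3, CUGCAGU was carried by Mir17, Mir20b and Mir106a, which also carry AAAGUGC. The seed with every gene lower, CUUUAAC, was that of Mir302b, Mir302c and Mir302d, all below the filter. The seed AAAGUGC of miR-17 was carried by 6 genes, all higher, between 0.04 and 1.01. Of these, 2 passed the filter, Mir17 and Mir20a, and the others were below it with differences of 0.11 or less. The seed ACAUUCA of the miR-181 family, which in mouse marrow is known to favour the lymphoid lineages, was also carried by 6 genes, all higher, between 0.17 and 1.07. Of these, Mir181c differed by 0.17 and Mir181d by 0.21 past the filter, and Mir181a-2 had 6.61 in knockout cells and 5.55 in wild-type cells, below it by mean. The let-7 seed GAGGUAG, whose family restrains growth, was carried by 9 genes with a mature sequence, with 4 higher and 5 lower. Mirlet7g had 6.76 in knockout cells and 5.79 in wild-type cells, while Mirlet7i, the member past the filter, had 7.20 in knockout cells and 7.26 in wild-type cells.

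Other microRNA genes with known parts in blood cells were mostly weak or close to level. Mir142, expressed across blood lineages, had 9.94 in knockout cells and 9.15 in wild-type cells, a difference of 0.78. Mir155, which acts in stem cells and inflammation, had 6.74 in knockout cells and 7.04 in wild-type cells. Of 17 measured microRNA genes listed as high in stem cells, 4 passed the filter, namely Mir196b, Mir155, Mir99b and Mir146b, and the last 2 differed by 0.11 and 0.10. Mir125a, Mir125b-1, Mir125b-2, Mir126a, Mir130a and Mir10a were below the filter in both pools. In the myeloid list, Mir27a differed by 0.21, Mir23a by −0.16 and Mir24-2 by −0.21, although the 3 genes form 1 cluster. Mir150, the lymphoid microRNA that targets Myb, differed by −0.09, and the hypoxia-responsive Mir210 by 0.06.

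MicroRNAs reported to target Nfe2l2 or Keap1 transcripts had 8 of 10 measured genes higher, against 50.7% of all measured genes. Of the 10, 0 were at least 2-fold apart, against 0.311% higher and 0.602% lower of all measured genes. Most were below the filter. Of the 10, 3 passed it, with 2 higher and 1 lower: Mir142 and Mir27a, given above, and Mirlet7i. Mir144 had 2.74 in knockout cells and 2.64 in wild-type cells, Mir153 had 3.92 in knockout cells and 3.70 in wild-type cells, and Mir200a had 6.00 in knockout cells and 6.23 in wild-type cells.

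In the microRNA class, all differences of at least 2-fold towards wild type were at genes below the filter. Past the filter the lowest were Mir680-2, with 8.20 in knockout cells and 8.89 in wild-type cells, Mir191 at −0.39, Mir692-1 and Mir680-1 at −0.37 each, and Mir155 at −0.30. Mir680-3, a further copy that shares the seed of Mir680-1 and Mir680-2, differed by 0.25. Below the filter, 5 of 230 genes of the class (2.17%) were lower by 2-fold or more and 4 (1.74%) higher by as much; over all genes below the filter the shares were 0.441% lower and 0.211% higher. Named after their values were seen, Mir202 had 3.59 in knockout cells and 6.72 in wild-type cells, Mir302b 5.08 in knockout cells and 6.86 in wild-type cells, and Mir222, whose microRNA represses KIT in human cells, 4.96 in knockout cells and 6.34 in wild-type cells. Mir221, the neighbour of Mir222, differed by −0.15.

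The microRNA genes of the imprinted Dlk1-Dio3 region on chromosome 12 were mostly weak, with no common direction. Of the 29 measured genes with a hairpin position from Mir379 to Mir369, 3 passed the filter, 16 were higher and 11 lower. All lay between −0.32 and 0.30. Mir666, also on chromosome 12 and past the filter at 8.10 in both pools, is not among the 29. The median levels of the 29 were 3.63 in knockout cells and 3.59 in wild-type cells. Of the 7 measured genes with a hairpin position from Mir337 to Mir136, 2 passed the filter. Among these 7, 2 were higher and 5 lower, between −0.55 at Mir665 and 0.34 at Mir127.

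Genes for microRNA processing and effector proteins were near level as well. Of 19 past the filter, 13 were higher and 6 lower, 0 by 2-fold, with a median of 0.08. Of all genes past the filter, 46.5% were higher, and only 0.411% were higher and 0.762% lower by 2-fold. Dicer1 had 9.81 in knockout cells and 9.45 in wild-type cells, a difference of 0.36, the export receptor gene Xpo5 differed by 0.22 and the nuclease gene Drosha by 0.09. Dgcr8, its partner, had 9.18 in knockout cells and 9.40 in wild-type cells, and the Argonaute gene Ago2 differed by −0.02.

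Nfe2l2 itself had 9.07 in knockout cells and 9.16 in wild-type cells; the deleted part of the gene is not named in the labels, so this value does not check the genotype. Of 5 measured KSL markers, 4 were higher in knockout cells. Kit had 11.21 in knockout cells and 10.93 in wild-type cells, and Cd34 had 11.43 in knockout cells and 11.29 in wild-type cells. Procr differed by −0.09, and Ly6a, the gene of Sca-1, was not among the measured genes. All 10 neutrophil markers were lower in knockout cells, by a median of −1.63, and their summed linear intensity was 6513 in knockout cells and 15202 in wild-type cells. Of 7 monocyte and macrophage markers 6 were lower, with sums of 1254 in knockout cells and 1625 in wild-type cells. Cd68, the strongest of the 7, was higher, at 9.31 in knockout cells and 8.68 in wild-type cells. Other lists went both ways, with 3 higher and 2 lower for the B lineage. Of T and NK markers 2 were higher and 3 lower, and of erythroid markers 2 were higher and 2 lower. No marker was listed at 0. The part of neutrophils, monocytes and macrophages in the small RNA differences was not tested. Fewer cells of a type cannot be told apart from less RNA per cell in pooled samples.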

How the data were processed

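The authors deposited a log2 intensity for each probe set on 1 knockout and 1 wild-type array; the log base was taken from the values. Partek is named, per the submitters' processing notes; its role, the background correction and the scaling were not given in the sources used here. When sorted, the 2 arrays differed by at most 0.0866 at any rank. RNeasy micro columns, which are known to bind short RNAs poorly, and NuGEN Ovation amplification were used, per the labels' protocols. Precision is limited by the number of arrays.

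Names came from the platform annotation; 21789 of 28853 had 1 symbol, and 98 with several symbols, at least 1 of them of a small RNA, were left out. Probe sets of a gene were averaged (368 for the 356 members, 9 with more than 1). All 356 matched RefSeq by Entrez ID, and 270 of the microRNA class had a mature sequence in the table used. MicroRNA clusters were hairpins on 1 strand at most 10000 bases apart, for the 258 members with a hairpin position. Surrounding genes of snoRNAs were found by annotated span, not by strand as planned. Counting was tested on simulated data, with planted differences beyond the 2-fold limit and all others held within it. This checks the code only, because the setting fixed the outcome. Probe-set error of a single difference over 515 genes with 2 probe sets past the filter was 0.32 as an SD and 0.17 as a robust SD; it leaves out the spread between mice, sorts and amplifications.

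Named genes were members past the filter at least 2-fold apart with their surrounding genes, in each class the 8 highest and 8 lowest differences and the 5 highest levels, list members and Nfe2l2, of which a selection is given; genes outside the rule include members below the filter and those named as cluster, copy or host partners. Members and lists were chosen with earlier results of these data known. Alternatives were scaling by median, quantile or loess, other level filters, the probe set of highest mean, a 1.5-fold size, means, 1 value per locus and leaving out host transcripts. Python 3.11.15 with numpy 2.4.6 and pandas 2.3.3 was used.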

Additional observations from a re-analysis of the deposited data

How the results depend on the processing

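No paired analysis was possible because each genotype had 1 array. No difference of the 16 members at least 2-fold apart and no median of the box C/D, box H/ACA or microRNA class turned sign under the alternatives run; 7 members past the filter, none larger than 0.03 in size, turned sign under another scaling. With the level filter at the 75th percentile, the counts at least 2-fold higher were 1 for box C/D and 1 for box H/ACA. They were 0 for scaRNA and 1 for the microRNA class. The share of all genes at that filter was not computed, so these counts have no background. With both arrays at the filter level, 1 of 16 box H/ACA genes and 2 of 66 of the microRNA class were at least 2-fold higher. The share of all such genes was 0.241%. With no level filter, the microRNA class had 10 of 302 higher and 5 lower, against 0.311% and 0.602% of all measured genes. At 1.5-fold, higher counts were 4 of 17 for box H/ACA and 10 of 72 for the microRNA class, against 2.34% of all genes. Lower counts were 1 of 25 for box C/D and 1 of 72 for the microRNA class, against 4.3%. With the probe set of highest mean, 1 gene of the microRNA class, the long non-coding Mir99ahg, was at least 2-fold lower. The mean for box C/D was 0.63, against a median of 0.28. A stricter filter leaves fewer genes by construction; the cause of the other shifts was not tested.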

Other observations

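Equal deposited values in both pools occurred at 16 of the 356 small RNA genes, 14 of them below the filter, and at 458 of the 19582 other genes. Among the members with 2 probe sets, those of Snora30, Snord118 and Scarna17 were identical within each array, while those of Snora3 gave differences of 0.55 and 0.54 and those of Snora21 0.10 and 0.04. The 2 probe sets of Mirt1, below the filter by their mean, differed in opposite directions, by 0.23 and −0.42. Mir99ahg, with 4 probe sets, had differences between −1.06 and 0.26.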
